A study of Rattus norvegicus with 7 samples.

Results

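The genes described here make prostaglandins or receive their signal: the phospholipases A2 Pla2g4a and Pla2g2a, the cyclooxygenases Ptgs1 and Ptgs2, the prostaglandin D synthase Ptgds, and the receptors Ptger2, Ptger3, Ptger4, Ptgfr and Ptgir. These 10 genes, of 4736 distinct genes named on the array, were chosen by gene family with their signals by cell type and dose on these same arrays already in view, so every value below is a description and no test is given. All 10 were found, with 15 probe sets of the 8740 that are not controls (a probe set is the group of oligonucleotides that reads a transcript). A single probe set represented 7 of the genes, Ptgs2 had 2, and Ptger3 and Ptgfr had 3 each.

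The samples were primary cultures from Wistar rats, which the labels describe as 17-day-old, kept in DMEM with glutamine, antibiotics and N1 supplement, and exposed for 24 h to grape seed extract, a polyphenol-rich plant extract. Astrocytes of the hippocampus received 0, 1, 10 or 100 µg/ml, and neurons of the hippocampus received 0, 1 or 10 µg/ml. Every combination had 1 array and therefore 1 value, and the number of arrays, 4 and 3, limits the precision of all comparisons. No combination was repeated, and the treated arrays of a cell type share its single untreated array as their reference.

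Prostaglandin synthesis starts when phospholipase A2 frees arachidonic acid from membranes. A cyclooxygenase converts it to prostaglandin H2, and terminal synthases turn that into the individual prostaglandins, which act on G protein-coupled receptors: prostaglandin E2 on Ptger1 to Ptger4, prostaglandin F2α on Ptgfr and prostacyclin on Ptgir. Ptgs1 is the constitutive cyclooxygenase of many tissues. Ptgs2 is the form induced by cytokines and growth signals, and in brain it is also made by neurons in response to activity. In brain, Ptgds is known from the meninges, the choroid plexus and oligodendrocytes.

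The promoters of 4 members are shown because their genes carry the main patterns: Ptgs2 and Ptger2 for the highest dose in astrocytes, Ptgs1 as the other cyclooxygenase, and Ptgds for the difference between cell types. The sequences are RefSeq's, in the GRCr8 build, 5′ to 3′ on the strand of the gene, from 250 bases before the annotated start to 50 bases after it. They lie at chr13:64713813-64714112 (plus strand, Ptgs2), chr15:20696796-20697095 (plus strand, Ptger2), chr3:39981169-39981468 (plus strand, Ptgs1) and chr3:28682929-28683228 (minus strand, Ptgds). Capitals mark a match to 1 of 7 motifs searched on both strands.
Ptgs2: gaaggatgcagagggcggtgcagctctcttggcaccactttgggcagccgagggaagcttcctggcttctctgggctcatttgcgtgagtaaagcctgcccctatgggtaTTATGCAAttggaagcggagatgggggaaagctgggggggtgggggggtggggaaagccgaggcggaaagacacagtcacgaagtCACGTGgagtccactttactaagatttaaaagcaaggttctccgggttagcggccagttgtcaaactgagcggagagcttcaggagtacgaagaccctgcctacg
Ptger2: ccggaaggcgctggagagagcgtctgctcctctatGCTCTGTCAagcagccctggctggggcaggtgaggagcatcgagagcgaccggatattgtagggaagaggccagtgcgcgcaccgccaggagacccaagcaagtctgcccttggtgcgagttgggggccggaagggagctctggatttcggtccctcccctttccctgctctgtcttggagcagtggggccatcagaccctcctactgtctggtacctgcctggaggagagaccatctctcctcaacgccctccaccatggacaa
Ptgs1: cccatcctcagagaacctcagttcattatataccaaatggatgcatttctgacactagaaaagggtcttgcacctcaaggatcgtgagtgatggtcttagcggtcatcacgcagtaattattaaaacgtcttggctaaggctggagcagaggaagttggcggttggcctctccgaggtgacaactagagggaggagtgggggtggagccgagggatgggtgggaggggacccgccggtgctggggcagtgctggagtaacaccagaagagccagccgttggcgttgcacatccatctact
Ptgds: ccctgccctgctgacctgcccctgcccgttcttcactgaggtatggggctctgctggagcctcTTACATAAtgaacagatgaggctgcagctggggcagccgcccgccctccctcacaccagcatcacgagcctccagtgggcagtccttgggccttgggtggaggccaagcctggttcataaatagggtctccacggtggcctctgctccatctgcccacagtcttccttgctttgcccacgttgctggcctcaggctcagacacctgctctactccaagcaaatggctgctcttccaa

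The Ptgs2 window held a match to the C/EBP motif TTNNGNAA at positions -140 to -133 from the start and an E-box, CACGTG, at -55 to -50. No other member had that E-box, which 6.42% of all 33469 promoters of the same length held. The C/EBP motif was in 5 of the 10 members (Pla2g2a, Pla2g4a, Ptgds, Ptgfr and Ptgs2) and in 41.3% of all promoters. The antioxidant element core TGACNNNGC was in Ptger2, at -215 to -207, and in Ptger3, against 12.1% of all promoters, and the TATA box TATAAA was in Pla2g4a, against 14.2%. None of the 10 windows held the NF-kB motif, the cyclic AMP response element core TGACGT or the AP-1 motif TGANTCA, which 7.51%, 7.94% and 7.33% of all promoters held. The motifs marked in the 4 sequences do not overlap, and the Ptgs1 window matched none of the 7. Such matches describe letters and are not binding sites. Pla2g4a and Ptgs2 are consecutive protein-coding genes in the RefSeq order of chromosome 13.

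Signals are the authors' intensities on a linear scale, scaled so that the 7 trimmed means ranged over 500.731 to 500.874. A floor of 17.9, the 25th percentile over all arrays, replaced lower values before log2, and folds that involve a floored value are bounds, marked "at least". Between 4 and 7 of the 15 probe sets lay at or below that floor on any array. Only 6 probe sets were above it on all arrays, 2 were at or below it on all 7 arrays, and 5 never exceeded the median of all signals, 79.9. Only 6 members, with 1 probe set each, had a mean log2 signal above that median in at least 1 cell type, and for Ptgs2 the treated astrocyte arrays supplied it. Of the markers listed for the cell types, all 5 measured neuron markers were lower in astrocytes without overlap. Of 7 astrocyte markers, 3 were higher in astrocytes without overlap and 2, Slc1a3 and Aqp4, were lower in astrocytes, while Slc1a2 did not exceed 43.1 on any array. At 100 µg/ml, the array with the high Ptgs2 and Ptger2 signals, 2 of the 7 were at least 2-fold lower than in untreated astrocytes: Slc1a3, a glutamate transporter, had 965.6 against 3975.8, and Aqp4, a water channel, 254.8 against 567.0. Whether this bears on those signals was not tested. The astrocyte cultures also carried signal for oligodendrocyte, meningeal and microglial markers, given beside the results they touch. The neuron cultures carried signal for astrocyte markers, which summed to 26879 to 27296, against 30423 to 32017 in astrocytes at the same doses. Of 6 measured endothelial and pericyte markers, 3 were higher in neurons without overlap and 0 were higher in astrocytes. The part of such cells in the neuron signals of the members was not tested.

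Pla2g4a, the cytosolic phospholipase that releases arachidonic acid, had signals of 112.6, 118.6, 179.8 and 68.8 in astrocytes at 0, 1, 10 and 100 µg/ml, and of 35.3, 36.5 and 46.8 in neurons at 0, 1 and 10 µg/ml. The highest value was at 10 µg/ml in both cell types, and the lowest astrocyte value was at 100 µg/ml, 2.61-fold below that at 10. Against untreated cells the log2 changes in astrocytes were 0.68 at 10 µg/ml and -0.71 at 100 µg/ml, both under 2-fold. Pla2g2a, a secreted phospholipase, had 4.5, 2.7, 3.0 and 3.4 in astrocytes, all under the floor, against 121.8, 128.8 and 101.2 in neurons. Its 3 neuron arrays lay within 2-fold of each other.

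Ptgs1 had signals of 375.1, 345.1, 342.5 and 278.4 in astrocytes and of 618.8, 536.6 and 469.8 in neurons. In both cell types every treated array was below the untreated one and the lowest was at the highest dose, with log2 changes of -0.43 in astrocytes and -0.40 in neurons, again under 2-fold.

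Ptgs2 was the member with the largest difference between arrays. Its S67722_s_at probe set had signals of 11.3, 35.4, 227.8 and 3403.8 in astrocytes at 0, 1, 10 and 100 µg/ml, against 44.8, 37.5 and 29.5 in neurons at 0, 1 and 10 µg/ml. The astrocyte signal was thus higher at each higher dose, while the neuron signal was lower at each higher dose, by under 2-fold. Against untreated astrocytes it was at least 12.7-fold higher at 10 µg/ml and at least 190.2-fold higher at 100 µg/ml, and the step between those doses was 14.9-fold. The other probe set, L25925_s_at, had 37.8, 30.8, 19.5 and 1529.1 in astrocytes and 32.7, 29.7 and 13.2 in neurons. It was 40.5-fold higher at 100 µg/ml, but at 10 µg/ml it was 0.95 log2 lower than in untreated cells. Both probe sets thus had their highest signal at 100 µg/ml, and at 10 µg/ml they went opposite ways, so the value at 10 µg/ml rests on 1 of the 2. Over the other ways of processing tried, the Ptgs2 change lay between 5.41 and 8.23 log2 at 100 µg/ml and between 1.36 and 4.33 log2 at 10 µg/ml. These used S67722_s_at or the mean of both probe sets. L25925_s_at alone was not among them, and its changes of 5.34 and -0.95 log2 lie below these ranges. The untreated astrocyte signal also differs between the 2 probe sets, 11.3 and 37.8, on either side of the floor.

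At 100 µg/ml the median change of the 4252 probe sets with a mean log2 signal above the median of all signals in astrocytes was -0.26 log2 on the deposited scale and -0.09 after quantile normalization. Relative to -0.26, Ptgs2 was higher by 7.83 log2 (at least) and 5.60 log2 at its probe sets, Ptger2 by 2.69 and Ptgds by 0.63, and Pla2g4a and Ptgs1 stood at -0.45 and -0.17. The corresponding median at 10 µg/ml was -0.10, and it was near 0 at 1 µg/ml and in neurons.

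**Figure D1:**
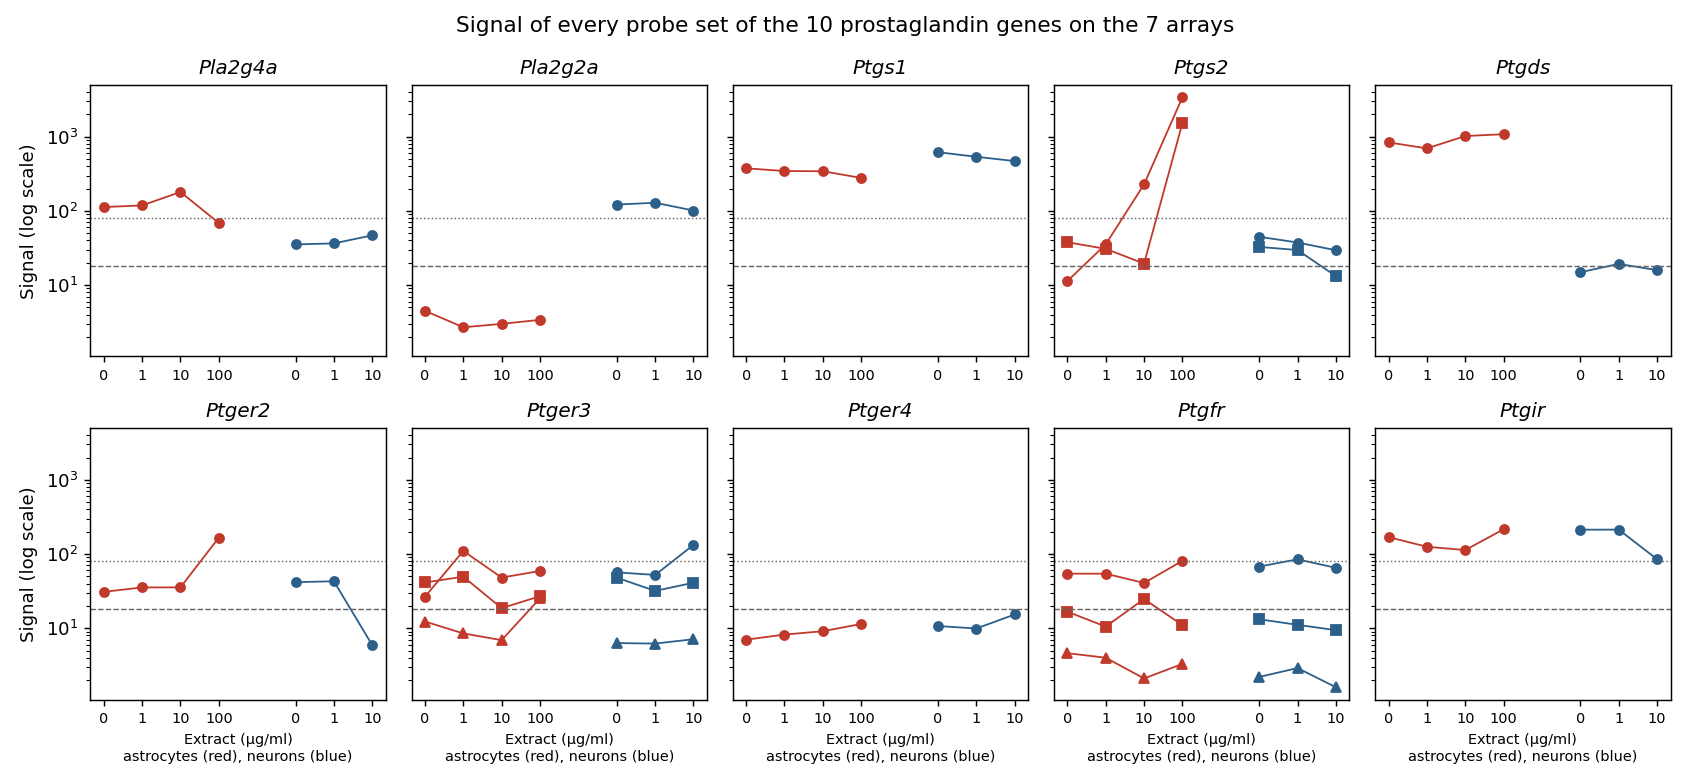
Signal of each probe set (log axis) on the 4 astrocyte arrays (red, left) and the 3 neuron arrays (blue, right) by dose of extract in µg/ml, 1 array per point. Circles are a gene's brightest probe set and squares and triangles its others, the dashed line is the floor of 17.9 and the dotted line the median of all signals, 79.9; Ptgs2 reaches 3403.8 and 1529.1 in astrocytes at 100 µg/ml.

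Ptgds, which isomerises prostaglandin H2 to prostaglandin D2 and also carries lipophilic molecules, had signals of 839.2, 696.0, 1022.2 and 1081.3 in astrocytes, against 14.9, 19.3 and 15.9 in neurons. All 4 astrocyte signals were far above the 3 neuron signals, of which 2 were under the floor. With the extract the astrocyte signal differed from the untreated one by -0.27, 0.28 and 0.37 log2 at 1, 10 and 100 µg/ml, with no common direction. Markers of cells known to make Ptgds differed in the same direction between the cultures. All 6 measured oligodendrocyte markers and all 9 meningeal and fibroblast markers were higher in astrocytes than in neurons without overlap. The summed signal of the oligodendrocyte markers was 5820 to 6784 in astrocytes at 0, 1 and 10 µg/ml and 684.0 to 760.1 in neurons, and that of the meningeal markers 46145 to 57634 in astrocytes and 8149 to 10004 in neurons. No marker of these lists was at or below the floor in astrocytes at any dose, and the part of these cells in the Ptgds signal was not tested. In such bulk cultures, fewer cells of a type and less RNA per cell cannot be told apart.

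Among the receptors for prostaglandin E2, Ptger2, which couples to cyclic AMP, had signals of 30.9, 35.4, 35.5 and 166.2 in astrocytes. Its signals in neurons were 41.7, 42.9 and 5.9. The astrocyte array at 100 µg/ml stood 5.38-fold above the untreated one, while those at 1 and 10 µg/ml were within 0.20 log2 of it. That change of 2.43 log2 became 1.06 with the floor at the median of all signals and 2.96 after quantile normalization. The neuron array at 10 µg/ml was under the floor, at least 2.33-fold below the untreated array. Both departures are of a single array.

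Ptger3, the receptor that lowers cyclic AMP and is made as several splice forms, was read by 3 probe sets that did not move together. D16443_g_at had 26.5, 110.0, 48.1 and 59.0 in astrocytes and 56.6, 52.2 and 132.5 in neurons. D14869_s_at had 41.3, 49.5, 18.6 and 27.0 in astrocytes and 48.0, 31.8 and 41.0 in neurons. D16443_at exceeded the floor on the astrocyte array at 100 µg/ml alone, at 25.3. At D16443_g_at the astrocyte arrays at 1 and 100 µg/ml and the neuron array at 10 µg/ml were 4.15-, 2.23- and 2.34-fold above their untreated arrays, without an order by dose in astrocytes. At D14869_s_at the astrocyte array at 10 µg/ml was 2.22-fold below the untreated one. Averaged over the 3 probe sets, the first 3 of these changes were 0.77, 0.35 and 0.33 log2, under 2-fold. Ptger4, the other receptor coupled to cyclic AMP, was at or below the floor on all 7 arrays, with signals of 7.0 to 11.4 in astrocytes and 9.9 to 15.3 in neurons, so it has no measured change.

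Ptgfr, the prostaglandin F2α receptor, exceeded the floor on all arrays at S74898_s_at alone, with 54.3, 54.3, 40.7 and 80.9 in astrocytes and 67.6, 84.8 and 65.1 in neurons. No array there was 2-fold from its untreated one. Its other probe sets had signals of 10.5 to 24.7 and 2.1 to 4.6 in astrocytes and of 9.4 to 13.2 and 1.6 to 2.9 in neurons. Ptgir, the prostacyclin receptor, had 169.0, 125.2, 113.1 and 215.5 in astrocytes and 212.8, 213.2 and 85.0 in neurons. The neuron array at 10 µg/ml was 2.50-fold below the untreated array, and the astrocyte arrays were within 2-fold of theirs, lower at 1 and 10 µg/ml and higher at 100 µg/ml.

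Counted over all 15 probe sets with no signal filter, 4 had a signal in astrocytes at 100 µg/ml at least 2-fold above the untreated one and none 2-fold below it. They were the 2 of Ptgs2 with Ptger2 and D16443_g_at of Ptger3. Of all 8740 probe sets, 20.7% were at least 2-fold changed on that array, 6.06% higher and 14.6% lower. In astrocytes at 10 µg/ml 1 was higher (Ptgs2, S67722_s_at) and 1 lower (Ptger3, D14869_s_at), with 8.33% of all probe sets changed, 3.54% higher and 4.79% lower. At 1 µg/ml 1 was higher (Ptger3, D16443_g_at), with 5.33% of all changed, 2% higher and 3.33% lower. In neurons at 10 µg/ml 1 was higher (Ptger3) and 2 were lower (Ptger2 and Ptgir), with 4.08% of all changed, 1.78% higher and 2.3% lower. At 1 µg/ml in neurons no member was, with 4.06% of all changed, 2.15% higher and 1.91% lower. The members' median log2 change was 0.35 at 100 µg/ml, against -0.05 for all probe sets, and 0.00 at 1 and 10 µg/ml, against 0.00 for all. In neurons the members' median was 0.00 at the lower dose and -0.05 at the higher one, against 0.00 for all. Just short of 2-fold were Ptgs2 at S67722_s_at in astrocytes at 1 µg/ml (at least 0.98 log2) and at L25925_s_at at 10 µg/ml (-0.95). Nothing is read from these counts, since the members were chosen with the changes known. Dim probe sets, with a mean log2 signal between the floor and the median of all signals, were changed 2-fold more often than the 8740 as a whole. In astrocytes their share was 12.3%, 14.6% and 23.2% at 1, 10 and 100 µg/ml, and in neurons 11.9% and 11.7% at 1 and 10 µg/ml. At 100 µg/ml the share was higher still, 31.7%, among probe sets between that median and the 75th percentile, and 19.5% above it. Of the members' probe sets, 7 were dim, between the floor and the median, in astrocytes and 8 in neurons. Those of Ptger2 and Ptger3 D16443_g_at were among them in both.

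**Figure D2:**
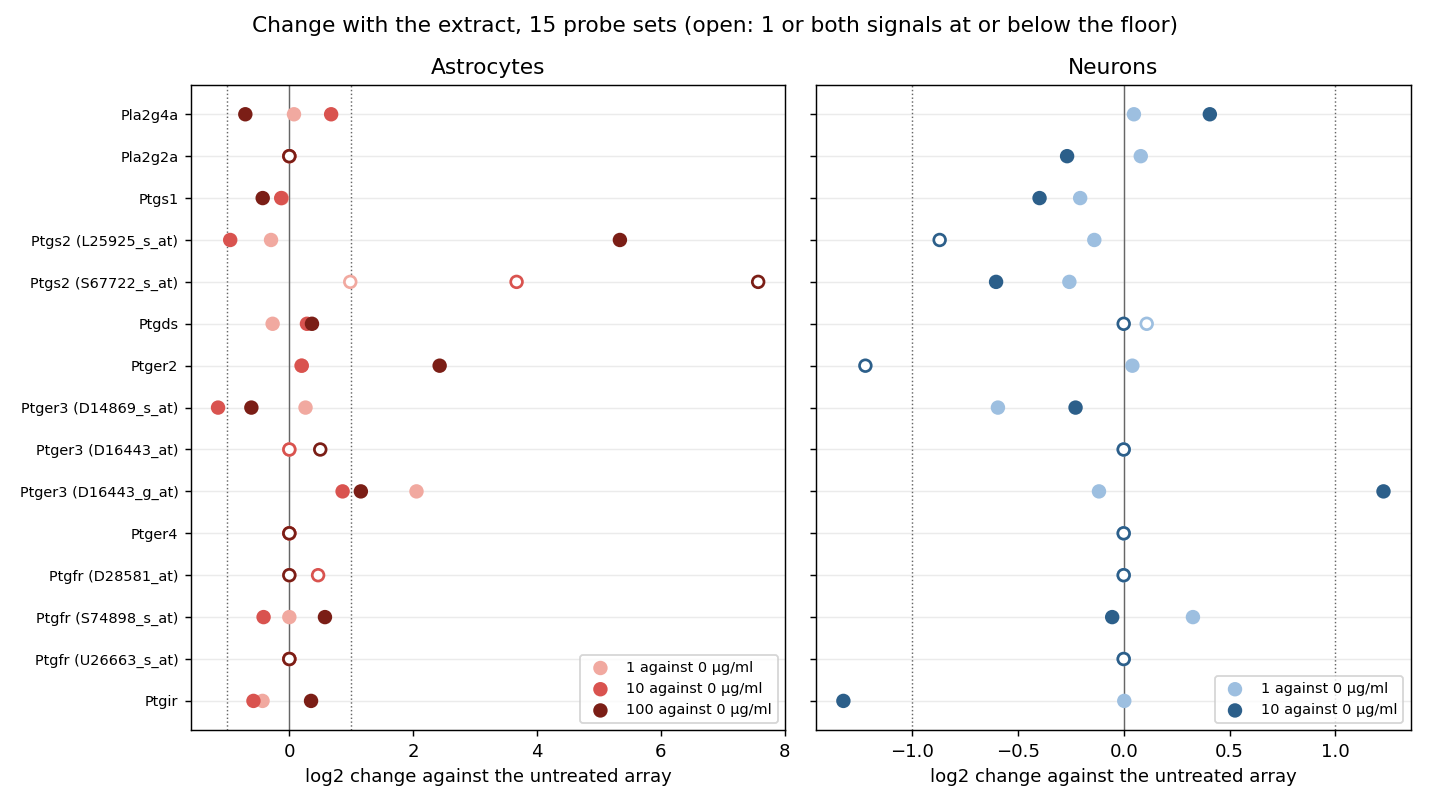
log2 change of each probe set relative to untreated cells of the same type, for astrocytes (left) at 1, 10 and 100 µg/ml and neurons (right) at 1 and 10 µg/ml, with dotted lines at 2-fold and different horizontal scales. Open points have a signal at or below the floor on 1 or both arrays; the points farthest to the right are those of Ptgs2 at 100 µg/ml, 5.34 and at least 7.57.

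The cell types were set side by side at the 3 doses given to both. Of the 15 probe sets, 2 were higher in astrocytes on every array, those of Ptgds and Pla2g4a, as were 15.6% of all 8740. The 3 that were lower in astrocytes on every array belonged to Pla2g2a, Ptgs1 and Ptgfr (S74898_s_at), against 20.6% of all. Without the arrays at 10 µg/ml the 5 became 8, of which 2 were higher and 6 lower in astrocytes. Fewer arrays make no overlap easier to meet, and the share of all probe sets in that setting is not given here. Nothing is read from the count of 8. Ptgds averaged 852.5 ± 163.5 in astrocytes and 16.7 ± 2.3 in neurons (SD, n = 3 doses each), a difference of 5.52 ± 0.33 log2 between floored signals, at least 45.9-fold. Pla2g4a averaged 137.0 ± 37.2 in astrocytes and 39.5 ± 6.3 in neurons, 1.77 ± 0.15 log2. For Pla2g2a the signals averaged 3.4 ± 0.96 in astrocytes and 117.3 ± 14.3 in neurons, at least 6.52-fold lower in astrocytes. Ptgs1 averaged 354.2 ± 18.1 in astrocytes and 541.7 ± 74.6 in neurons, a difference of -0.60 ± 0.14 log2, and Ptgfr 49.8 ± 7.9 in astrocytes and 72.5 ± 10.7 in neurons, -0.55 ± 0.20 log2. The 5 were picked for having no overlap, so their single direction at each of the 3 doses follows from that rule. Among the other probe sets the arrays of the cell types overlapped. Ptgs2 at L25925_s_at differed by 0.21, 0.05 and 0.12 log2 at 0, 1 and 10 µg/ml, the last a lower bound. At S67722_s_at it stood at -1.32 log2 or lower without extract, where the astrocyte signal was under the floor, and at -0.08 and 2.95 log2 at 1 and 10 µg/ml. Ptgir and Ptger2 were lower in astrocytes at 0 and 1 µg/ml and higher at 10 µg/ml, where their neuron signals were low. The SD is over doses and so includes any effect of the extract.

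**Figure D3:**
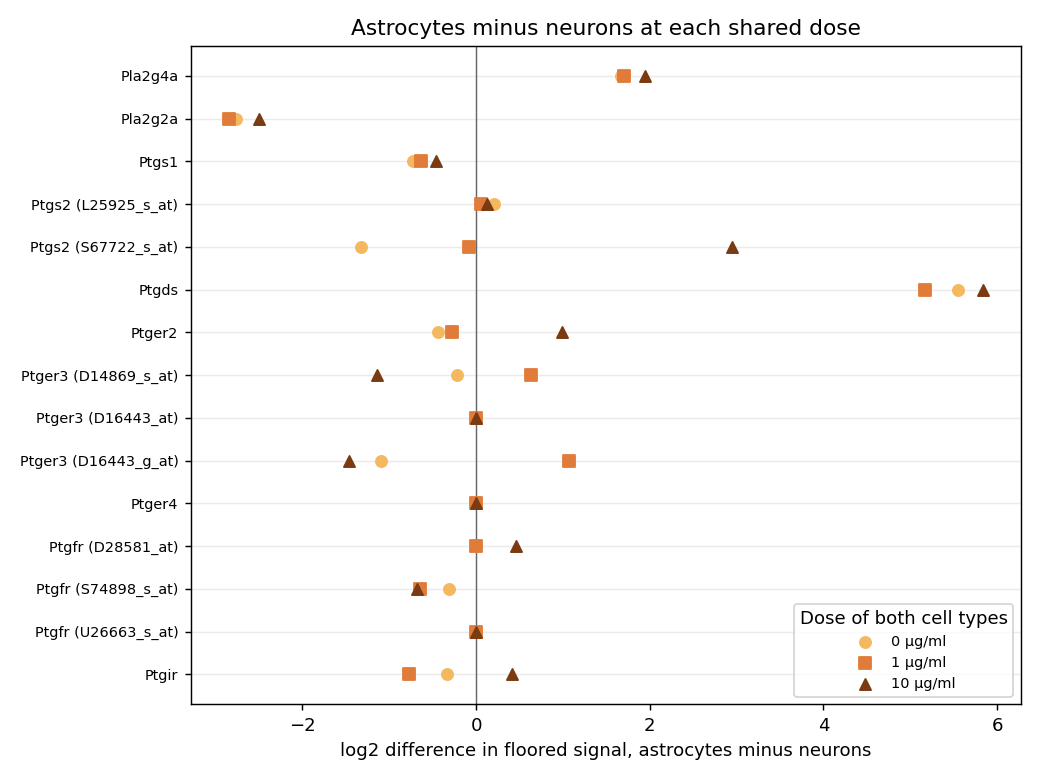
Difference in floored log2 signal, astrocytes minus neurons, for each probe set at 0, 1 and 10 µg/ml, 1 pair of arrays per point. Ptgds and Pla2g4a lie right of 0 at every dose and Pla2g2a, Ptgs1 and Ptgfr S74898_s_at left of it; probe sets at or below the floor in both cell types lie at 0.

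Of 41 other genes of prostanoid and leukotriene metabolism listed for comparison, 21 were measured. With each at its brightest probe set, none was at least 2-fold higher and 1 lower in astrocytes at 1 µg/ml, 2 higher and 2 lower at 10 µg/ml, and 4 higher and 5 lower at 100 µg/ml. In neurons 3 were higher and 1 lower at 1 µg/ml and 1 was higher at 10 µg/ml. The shares of all probe sets changed in either direction were 5.33%, 8.33% and 20.7% in astrocytes at 1, 10 and 100 µg/ml, and 4.06% and 4.08% in neurons at 1 and 10 µg/ml. Their median log2 change at 100 µg/ml was 0.00, against -0.05 for all probe sets. Hpgds, the hematopoietic prostaglandin D synthase of microglia and mast cells, had 454.6, 817.2, 536.5 and 117.7 in astrocytes at D82071_at and 307.9, 274.4, 175.9 and 50.7 at AF021882_s_at. Both probe sets were lowest at 100 µg/ml, by -1.69 and -2.34 log2 relative to the median change. The neuron signals were 71.8, 59.3 and 80.8 at D82071_at and 10.1, 10.0 and 12.4 at AF021882_s_at. Ptgds and Hpgds, which catalyse the same step, thus had different dose patterns in astrocytes.

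Alox5ap, which presents arachidonic acid to 5-lipoxygenase, had 363.0, 363.3, 281.8 and 175.7 in astrocytes at X52196cds_at, -1.05 log2 at 100 µg/ml and -0.79 relative to the median change. Its other probe set stood at -1.69 log2. Ptgis, Pla2g1b, Pparg, Alox15 and Tbxas1, also past 2-fold at 100 µg/ml, were dim in astrocytes and are named after their values were seen. Of these, Ptgis, the prostacyclin synthase, had 19.7, 20.3, 15.7 and 50.4, a log2 change of 1.36, and Pla2g1b, a secreted phospholipase, and Pparg, a nuclear receptor, stood at 1.57 (at least) and 1.00 log2. Alox15, a lipoxygenase, stood at -1.61 log2, and lower still, at -2.52 log2, at 1 µg/ml. Its other probe set was under the floor on all astrocyte arrays. Tbxas1, the thromboxane synthase, had 119.4, 119.4, 86.8 and 24.7, a log2 change of -2.27 at 100 µg/ml and -2.01 relative to the median change. Tbxa2r, the thromboxane receptor, had 197.4, 143.4, 90.0 and 72.6 in astrocytes at D32080_at, lower at each higher dose. Its other probe set, D21158_s_at, had 17.2, 11.9, 10.8 and 13.7, all under the floor, and so shows no dose order. Slco2a1, which carries prostaglandins across membranes, had 92.4, 118.3, 210.5 and 302.8 in astrocytes at its brightest probe set, 1.19 log2 higher at 10 µg/ml and 1.71 at 100 µg/ml. Its other probe set, M64862_at, had 64.2, 38.1, 59.3 and 36.7 and was not higher. Cbr1, a carbonyl reductase able to reduce prostaglandin E2, had 457.2, 798.8, 960.8 and 477.4 at D89070cds_s_at, 1.07 log2 higher at 10 µg/ml and 0.06 at 100 µg/ml. Its other probe set, D89069_f_at, had 584.1, 457.3, 595.3 and 379.7, a log2 change of 0.03 at 10 µg/ml and -0.62 at 100 µg/ml.

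The microglial and macrophage markers, cell types that express Hpgds, Alox5ap and Tbxas1, changed in both directions in astrocytes. Of 10 markers, 3 were at least 2-fold higher at 10 µg/ml and none lower, and at 100 µg/ml 2 were higher and 3 lower. Their summed signal was 7726, 9002, 15201 and 12542 at 0, 1, 10 and 100 µg/ml in astrocytes and 1645 to 2415 in neurons. Lower at 100 µg/ml were Ptpn6, a phosphatase of blood cell lineages (1009.5, 1121.9, 1253.8 and 53.9), Aif1, a calcium-binding protein of microglia (1636.5, 1382.2, 1425.9 and 250.8), and Cx3cr1, the fractalkine receptor (93.3, 100.0, 51.2 and 28.3). Cd14, a receptor for bacterial lipopolysaccharide (1487.8, 1922.1, 7418.3 and 8952.0), and Fcgr2b, an inhibitory Fc receptor (248.3, 258.0, 617.8 and 1161.7), were higher. At 100 µg/ml none of the 10 was at or below the floor, against 1, 2 and 1 of them at 0, 1 and 10 µg/ml. Itgam, the integrin of microglia and macrophages, had 13.7 to 29.0 and Csf1r, their growth factor receptor, 7.6 to 25.8 over the astrocyte arrays, near the floor. Cd14 carried the direction of that sum at 100 µg/ml. The other 9 markers summed to 6238, 7080, 7783 and 3590 at 0, 1, 10 and 100 µg/ml in astrocytes. Without Cd14 the sum was thus still higher at 1 and 10 µg/ml than in untreated cells, and it was lowest at 100 µg/ml. The sum without Cd14 was taken after the values were seen. The part of these cells in the signals of Ptgs2, Hpgds, Alox5ap and Tbxas1 was not tested.

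**Figure D4:**
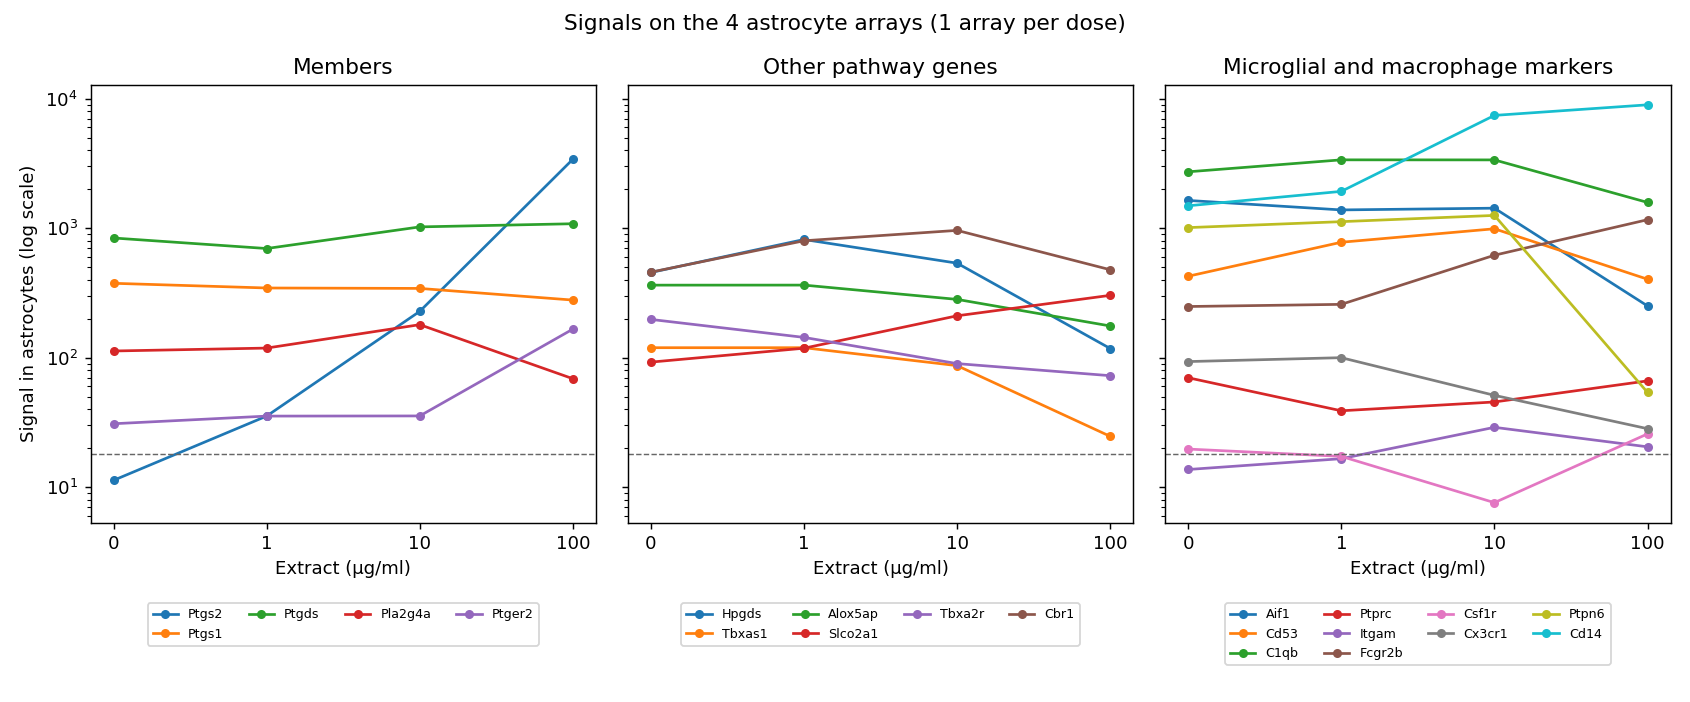
Signal (log axis) in astrocytes at 0, 1, 10 and 100 µg/ml of extract, 1 array per dose, for 5 members, 6 other pathway genes and the 10 microglial and macrophage markers, each at its brightest probe set. The dashed line is the floor of 17.9; Ptgs2 and Cd14 are highest at 100 µg/ml, where Hpgds, Tbxas1, Aif1 and Ptpn6 are lowest.

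The genes most alike in pattern were sought by Pearson's r of the floored log2 signal over the 7 arrays, among 990 probe sets with a range of at least 2 log2 units over the arrays and a mean log2 signal above the median of all signals in either cell type. For Ptgs2 (S67722_s_at) these were Olr1, a receptor for oxidised lipoprotein (r = 0.997), Junb, a subunit of AP-1 (0.994), Icam1, a leukocyte adhesion molecule (0.992), Klf4, a zinc finger transcription factor (0.990), and Nos2, the inducible nitric oxide synthase (0.990). Olr1 had 21.5, 35.5, 108.7 and 532.2 in astrocytes and 29.1 to 32.0 in neurons, and Nos2 11.6, 28.3, 171.7 and 784.1 in astrocytes and 27.9 to 41.7 in neurons. All 5 were highest in astrocytes at 100 µg/ml and second at 10 µg/ml, the order of Ptgs2, for likeness to which they were chosen. Olr1 and Nos2 exceeded the median of all signals only on those 2 arrays, through which they passed the signal filter. For Ptgds the closest were Wfdc1, Aebp1, Aldh1a2, Mmp2 and Apod (r from 0.998 to 0.999), all higher on every astrocyte array than on any neuron array. Of these, Aldh1a2 is on the list of meningeal markers. Ptgs1 had Ptprz1, Gfra2, Myh7, Ctnnd2 and Prkce beside it (r from 0.964 to 0.980), all lower on every astrocyte array than on any neuron array. Genes picked for likeness to Ptgds or Ptgs1 share its direction between the cell types by that choice. Wfdc1, Aebp1, Aldh1a2 and Apod exceeded the median of all signals on no neuron array, and passed the filter through astrocytes alone. Likewise Ptprz1, Gfra2, Ctnnd2 and Prkce exceeded it on no astrocyte array, and passed through neurons alone. The 7 points share 2 cell types and a single array at 100 µg/ml, and the r values are a description.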

How the data were processed

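The deposited table holds signal intensities on a linear scale, computed by the authors with GCOS from Affymetrix arrays, per the submitters' processing notes. Its version is not given in the sources used here. Per the labels' protocols, 100 ng of total RNA was amplified in 2 cycles and labelled with biotin. Of 8799 probe sets, 59 controls were left out. Symbols came from the platform annotation (1 symbol for 7006 probe sets, several for 308, none for 1426), and all 10 members matched RefSeq by gene ID.

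Signals were floored at 17.9 (25th percentile) and log2 was taken. Treated arrays were compared with untreated cells of the same type, and at least 2-fold was counted over all probe sets. A gene is represented by its brightest probe set. No p-value was computed: no combination of cell type and dose was repeated, and the members and lists were chosen with earlier results of these data known. All members are named. Of the listed pathway genes, those changed 2-fold with a mean log2 signal above the median of all signals in that cell type are named, with the 5 genes most alike in pattern to Ptgs2, Ptgs1 and Ptgds. Promoter motifs were matched exactly in RefSeq's sequences (GRCr8). Alternatives were quantile normalization, centring, other floors, filters at the median and at the 75th percentile (435.7), other reference arrays, the mean over probe sets, and leaving out arrays. The calculation was tested on simulated data for astrocytes at 100 against 0 µg/ml. Of 200 probe sets changed 4-fold among 8740, 200 were recovered, with 0 false. A 4-fold change lies past the 2-fold threshold, so this was a check of the code. It gives no error rate for 2-fold calls between single arrays. Python 3.11.15, pandas 2.3.3 and matplotlib 3.10.9 were used.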

Additional observations from a re-analysis of the deposited data

Results flagged for a closer look

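Ptgs2 at S67722_s_at had log2 changes of opposite sign in the cell types, and those in neurons were under 2-fold. Its neuron signals were all below the median of all signals. For scale, the SD over all probe sets of the change from 0 to 1 µg/ml in neurons was 0.40 log2. Its log2 changes in astrocytes were 0.98, 3.67 and 7.57 at 1, 10 and 100 µg/ml, and in neurons -0.26 and -0.60 at 1 and 10 µg/ml. The mean change was 4.07 over the 3 astrocyte doses and -0.43 over the 2 neuron doses, a difference of 4.50 log2 between unlike doses. Over 1 and 10 µg/ml alone the astrocyte mean was 2.33 and the difference 2.76 log2. The difference was not tested, since each dose had 1 array. The untreated astrocyte signal was under the floor, so the astrocyte changes are lower bounds. At the other probe set of Ptgs2 the changes at 1 and 10 µg/ml were negative in both cell types, -0.30 and -0.95 in astrocytes and -0.14 and -0.87 or lower in neurons, where the signal at 10 µg/ml was under the floor.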

How the results depend on the processing

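No paired test was run, because no group had replicate arrays to block on and the members were chosen with these data known. The cell types were instead compared dose by dose, with the mean and SD of the dose-matched differences. Of 11 gene changes or differences of at least 2-fold, recomputed under the alternatives as 89 values, 78 kept their direction and stayed at 2-fold or more, 8 kept it under 2-fold, 2 left no change and 1 reversed. The reversal was Ptger3 in astrocytes at 100 µg/ml, at 1.15 log2 against the untreated array and -0.90 against the array at 1 µg/ml. Some of the 89 values could not differ from the main one. Examples are the mean over probe sets for a gene with 1 probe set, and centring in neurons, where the median change was 0. The count of 78 includes such values. With the floor at the median of all signals the differences between cell types of Pla2g4a and Pla2g2a became 0.74 and -0.55 log2, since their dimmer side was raised to it. Changes of Ptgs2 at 10 and 100 µg/ml stayed past 2-fold in all, at S67722_s_at or, in 1 alternative, as the mean of both probe sets. At 10 µg/ml that mean was 1.36 log2, while L25925_s_at alone stood at -0.95. The number of member probe sets changed 2-fold moved by more than 1.5 times as follows. The shares of all probe sets under these alternatives are not given here, neither for these counts nor for the number without overlap. The alternatives can move those shares too, so nothing about the members is read from the counts. In astrocytes at 1 µg/ml the count of 1 became 2 with quantile normalization or no floor, and 0 with the floor at the median, either filter or 1 value per gene. At 10 µg/ml the count of 2 became 1 with the higher floor, the filter at the median or 1 value per gene, and 0 with the filter at the 75th percentile. At 100 µg/ml the count of 4 became 1 and 0 with these filters, which leave 5 and 1 probe sets, and 2 with 1 value per gene. In neurons at 10 µg/ml the count of 3 became 1 with the higher floor or the filter at the median and 0 with the stricter one. The number without overlap between cell types, 5, became 2 with the stricter filter, which leaves 2 probe sets, and was 5 to 8 when the arrays of 1 dose were left out, the highest without those at 10 µg/ml. Centring on the median of probe sets past the filter, chosen after seeing the data, changed none of the 5 counts of 2-fold changes and was not run for the number without overlap. With signals near the floor for most receptors, their changes are the least certain.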
